A study of Mus musculus with 16 samples.

Results

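The pan-reactive astrocyte markers are genes whose transcripts rise in reactive astrocytes after more than one kind of insult, in contrast to the sets named A1 (neuroinflammation) and A2 (ischemia). The 9 markers described here were Lcn2, Serpina3n, Timp1, Cp, Steap4, Cd44, S1pr3, Hspb1 and Aspg. They were taken by symbol from the deposited log2 CPM table, and all 9 were among its 16707 genes. Membership rests on the symbol and not on a measured value, although the list was chosen with earlier results of these data known. The markers do different things in the cell. Lcn2, Serpina3n, Timp1 and most Cp are secreted, Steap4, Cd44 and S1pr3 sit in membranes, and Hspb1 and Aspg act inside the cell. Several of them are acute-phase genes of the liver, which inflammatory cytokines switch on through STAT3, NF-κB and C/EBP factors.

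The study asked whether NLRX1, a mitochondrial member of the NOD-like receptor family, restrains inflammatory activation of astrocytes. Primary astrocytes came from 4 litters of WT (C57BL6J) pups and 4 litters of Nlrx1-/- pups (KO), and each litter gave 1 well treated with water as vehicle and 1 well treated with LPS at 500 ng/mL plus IFNγ at 10 ng/mL for 24 h, for 16 libraries in 4 groups of 4. The labels give 6-day-old pups, while another passage of the study names newborns. The vehicle is water by the methods, while a figure legend of the study gives phosphate buffered saline. Cells were pulled out with beads against the astrocyte antigen ACSA-2 and grown for about 10 days without serum with heparin-binding EGF at 5 ng/mL, so every group, controls included, had been grown in a growth factor, and no group was a freshly isolated astrocyte. Each litter was 1 genotype, so that differences between genotypes and differences between litters rest on the same 8 sets of pups. The sex and number of pups in a litter were not given in the sources used here.

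Libraries held between 27259420 and 43752903 reads assigned by Salmon. Nlrx1 itself was 10.5 ± 1.25 TPM in WT vehicle and 3.10 ± 1.04 in KO vehicle (SD, n = 4), and 8.39 ± 0.368 against 1.82 ± 0.550 TPM after LPS+IFNγ, so that all KO libraries lay below all WT libraries but none was at 0. The 10 astrocyte identity genes were all present, at 2625 to 5494 TPM in sum. The 12 microglia and macrophage markers summed to between 2.11 and 6.70 TPM in every library, and 3 of them reached 1 TPM. Of 5 neutrophil markers, S100a8, S100a9, Ly6g and Elane were at 0 in all 16 libraries. Oligodendrocyte lineage genes were present, at 1538 to 3146 TPM in sum for 8 genes, led by Olig1.

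Promoter sequences were looked up for the markers because STAT3, NF-κB and C/EBP act on acute-phase genes. RefSeq start sites gave 10 windows of 250 bases upstream for the 9 genes, with 2 for Cp, and each window matched GRCm39 once. The motifs searched on both strands were the STAT motif TTCNNNGAA, the C/EBP motif TTGCNNAA, the AP-1 motif TGANTCA, the heat shock motif GAANNTTC, the 10-base NF-κB consensus and the interferon response element. Of 32851 mouse windows of that length, 7.02% held the STAT motif, 9.56% the C/EBP motif, 6.75% the AP-1 motif, 6.69% the heat shock motif, 3.90% the NF-κB consensus and 2.98% the interferon response element. The Steap4 window held 3 kinds of motif, with 2 overlap-free matches of the NF-κB consensus, 1 STAT and 1 C/EBP match. The windows of Lcn2, of both Cp start sites and of Hspb1 held 1 kind each, and those of Cd44, Serpina3n, Aspg, S1pr3 and Timp1 held none of these letters. By the gene bounds of GENCODE M39, the windows of Lcn2, S1pr3 and the downstream Cp start lie wholly inside the gene. Only that of Cd44 lies wholly upstream, so that a lack of matches covers the windows and not the GENCODE promoters. The stretches with matches are shown 5′ to 3′ on the strand of the gene, with matches in capitals, and where GENCODE M39 puts an exon only the bases around the match are given. A match is a description of the sequence and not evidence of binding.
Steap4 with both NF-κB matches, chr5:8010222-8010259, plus strand: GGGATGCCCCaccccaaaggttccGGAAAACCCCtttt
Steap4 with the STAT match, chr5:8010347-8010373, plus strand: gttgaactcTTCCCGGAAactttgctt
Steap4 with the C/EBP match, chr5:8010376-8010401, plus strand: cagctcctcTTGCGAAAtcaagcggg
Lcn2 with the C/EBP match, chr2:32277951-32277976, minus strand: cccttcctgTTGCTCAAccttgcaca
Cp, upstream start, with the AP-1 match, chr3:20010968-20011089, plus strand: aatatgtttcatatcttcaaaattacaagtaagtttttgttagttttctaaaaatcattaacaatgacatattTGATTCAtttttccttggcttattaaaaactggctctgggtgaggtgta
Cp, downstream start, with the C/EBP match, chr3:20011334-20011359, plus strand: tagttactcTTTTGCAAcattaaatt
Hspb1 with the heat shock matches, chr5:135916523-135916759, plus strand: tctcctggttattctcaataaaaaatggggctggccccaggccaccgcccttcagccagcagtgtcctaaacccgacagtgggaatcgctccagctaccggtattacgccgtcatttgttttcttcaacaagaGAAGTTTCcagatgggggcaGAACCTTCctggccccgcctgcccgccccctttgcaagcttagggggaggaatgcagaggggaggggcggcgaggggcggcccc

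In vehicle, the markers spanned a wide range of levels on the per-length TPM scale. Cp (81.4 ± 13.5 TPM), S1pr3 (76.9 ± 15.5), Serpina3n (51.3 ± 27.02) and Cd44 (29.3 ± 3.79) formed the upper group in WT (SD, n = 4 litters throughout). Neighbours in that order overlapped between libraries. Hspb1 (10.2 ± 2.24 TPM) and Timp1 (8.55 ± 2.31) followed and overlapped each other, below all libraries of Cd44. Steap4 (2.61 ± 0.460), Aspg (1.16 ± 0.559) and Lcn2 (0.309 ± 0.424) were at the bottom. In KO vehicle, Cp was the highest marker at 89.2 ± 9.78 TPM, with no library of S1pr3 as high. After LPS+IFNγ the order was different. Lcn2 went from the lowest to the highest mean level in both genotypes, at 185 ± 71.4 TPM in WT and 342 ± 129 in KO, although its libraries overlapped those of Cp, which came second. Aspg became the lowest, at 0.0117 ± 0.0234 TPM in WT and 0.0305 ± 0.0609 in KO.

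**Figure D1:**
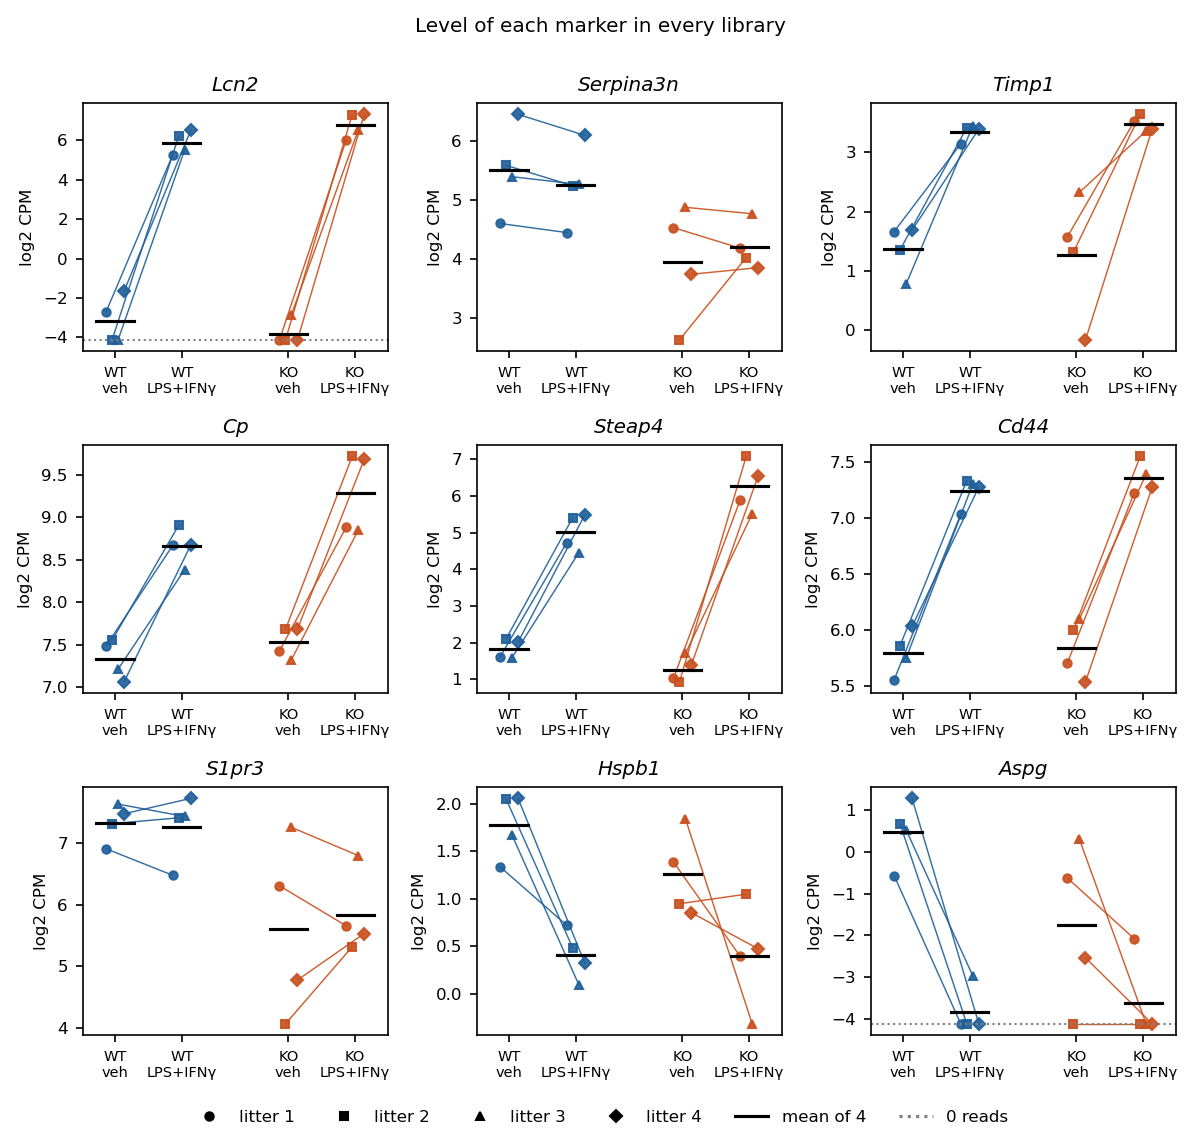
The deposited log2 CPM of each marker (vertical axis, a separate scale per panel) in the 16 libraries, with lines joining the vehicle and LPS+IFNγ wells of 1 litter, black bars for the mean of 4 and a dotted line at the value of 0 reads (-4.13) in the Lcn2 and Aspg panels. Lcn2, Timp1, Cp, Steap4 and Cd44 rise in all 8 litters, Aspg falls to or near 0 reads, and S1pr3 and Serpina3n spread more in KO vehicle than in the other groups.

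Stimulation of WT astrocytes raised 5 of the 9 markers (Lcn2, Steap4, Timp1, Cd44 and Cp), lowered 2 (Aspg and Hspb1) and gave no call for S1pr3 and Serpina3n. Calls are at an adjusted p below 0.05 in edgeR's quasi-likelihood test over 16066 genes, with the litter as a block. Of all genes tested, 23.7% were called up and 20.2% called down in WT. The median fitted log2 response of the markers was 1.34, against -0.02 over all genes. In KO astrocytes the same 5 markers were called up, 1 (Aspg) was called down and 3 were not called, where 25.3% of all genes were called up and 24.2% down. The median of the 9 was 1.51 in KO, against -0.03 over all genes. Markers of cell identity moved with the same treatment. Of 10 astrocyte identity genes, 3 rose and 5 fell in WT and 2 rose and 6 fell in KO, and of 8 oligodendrocyte lineage genes 5 fell in WT and 6 in KO, with Mbp, a myelin protein, at -1.23 and -2.21. Of 5 neuronal genes, 2 rose and 1 fell in WT, and 2 rose and 2 fell in KO. Among them Tubb3, a neuronal tubulin, rose by 2.68 and 2.93, while Rbfox3 fell (-0.92 and -0.70). The part of these changes in the marker responses was not tested. Wells of bulk RNA cannot tell fewer cells of a type from less RNA per cell.

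Lcn2 encodes lipocalin 2, a secreted protein that binds iron-loaded bacterial siderophores. Its mRNA was close to undetected in vehicle. WT vehicle libraries held 3, 0, 0 and 10 reads in litters 1 to 4, and KO vehicle libraries held 0, 0, 3 and 0. After LPS+IFNγ the level was 118, 214, 135 and 272 TPM in WT litters 1 to 4, and 194, 444, 275 and 456 TPM in KO litters. No vehicle library came near any stimulated library. From 13 reads in the 4 WT vehicle libraries to 8301 after stimulation the ratio was 650, with a 95% exact interval of 380 to 1220. In KO it went from 3 to 15232 reads, a ratio of 5240 with an interval of 1793 to 25414. These intervals cover counting error only, and they are wide because so few vehicle reads stand behind them. The fitted log2 changes were 9.38 ± 0.33 in WT (SE, adjusted p = 5.6e-09, edgeR) and 12.32 ± 0.38 in KO (adjusted p = 2.0e-09, edgeR). Their size depends on the prior count for the same reason. Each SE is the absolute change divided by the square root of the F statistic of the test. For Lcn2 these SEs are narrower than the counting intervals above, so that they overstate the precision. In WT the response ranked 59 from the top among 16066 genes.

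Steap4, a membrane metalloreductase that reduces iron and copper, rose from a low level in every litter. Its WT log2 CPM in litters 1 to 4 was 1.61, 2.11, 1.60 and 2.02 in vehicle and 4.73, 5.41, 4.45 and 5.49 after LPS+IFNγ. KO litters went from 1.03, 0.93, 1.71 and 1.40 to 5.89, 7.08, 5.51 and 6.56. Within litters the log2 CPM rose by 2.86 to 3.47 in WT and by 3.81 to 6.15 in KO, ranges that did not overlap. The responses of every other marker overlapped between genotypes, and the share of all genes without overlap was not counted. The difference of responses of Steap4 was not called (adjusted p = 0.218, edgeR). The fitted log2 change was 3.20 ± 0.27 in WT (adjusted p = 6.1e-06, edgeR) and 4.99 ± 0.29 in KO (adjusted p = 3.4e-07, edgeR). On the TPM scale the mean went from 2.61 to 21.4 in WT and from 1.697 to 51.3 in KO.

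Timp1, a secreted inhibitor of matrix metalloproteinases, converged on a narrow level after stimulation. Vehicle libraries held 1.66, 1.36, 0.78 and 1.69 log2 CPM in WT litters 1 to 4, and 1.58, 1.32, 2.33 and -0.16 in KO litters. All 8 stimulated libraries lay between 3.15 and 3.64 log2 CPM. KO litter 4, lowest in vehicle on 36 reads, had the largest response of the 8 litters, 3.56. KO litter 3, highest in vehicle, had the smallest, 1.03. The vehicle value is part of the response, so that with stimulated levels this close the inverse order follows by construction. Fitted log2 changes were 1.99 ± 0.34 in WT (adjusted p = 7.7e-04, edgeR) and 2.16 ± 0.34 in KO (adjusted p = 4.2e-04, edgeR). Both of its main RefSeq transcripts rose, NM_011593.2 from 5.54 to 18.3 TPM and NM_001044384.1 from 2.92 to 10.1 TPM in WT.

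Cd44, the hyaluronan receptor of the cell surface, responded alike in all 8 litters. Its log2 CPM in litters 1 to 4 was 5.55, 5.86, 5.74 and 6.03 in WT vehicle and 5.70, 6.00, 6.10 and 5.53 in KO vehicle. After LPS+IFNγ it was 7.03, 7.33, 7.30 and 7.27 in WT and 7.22, 7.55, 7.39 and 7.27 in KO. The 8 litters responded by 1.24 to 1.74, with fitted changes of 1.43 ± 0.07 in WT (adjusted p = 9.8e-08, edgeR) and 1.51 ± 0.07 in KO (adjusted p = 6.1e-08, edgeR). Of 10 RefSeq transcripts of this heavily spliced gene, NM_001039151.1 held 97.9% to 99.6% of its TPM as the mean of each group, before and after the rise.

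Cp encodes ceruloplasmin, the copper ferroxidase that oxidises iron for export, which astrocytes also make as a membrane-anchored form. Its log2 CPM in litters 1 to 4 was 7.49, 7.55, 7.21 and 7.06 in WT vehicle and 8.67, 8.91, 8.39 and 8.68 after LPS+IFNγ. KO litters went from 7.43, 7.68, 7.32 and 7.68 to 8.88, 9.72, 8.85 and 9.68. Every litter rose, by 1.17 to 1.61 in WT and by 1.46 to 2.04 in KO. The fitted log2 change was 1.34 ± 0.11 in WT (adjusted p = 4.5e-06, edgeR) and 1.75 ± 0.11 in KO (adjusted p = 5.5e-07, edgeR).

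The rise of Cp came with a change in its estimated transcript mix. NM_001374677.1, the shortest of its 5 main RefSeq transcripts at 3672 bases, held 12.4% ± 1.9 of Cp TPM in WT vehicle and 40.9% ± 0.8 after LPS+IFNγ, and 16.8% ± 4.8 and 50.5% ± 4.6 in KO (SD, n = 4). By litter, its share in KO went from 16.1, 16.2, 11.7 and 23.3% to 46.9, 51.8, 46.9 and 56.5%. The stimulated shares did not overlap between genotypes, from 40.0 to 41.7% in WT and from 46.9 to 56.5% in KO, which is a description with no test. On the TPM scale this transcript went from 9.90 ± 0.86 to 72.6 ± 11.4 in WT and from 15.3 ± 5.79 to 142 ± 53.3 in KO. The longer NM_001276250.1, of 4712 bases, went from 29.6 to 38.4 TPM in WT and from 30.2 to 40.4 in KO, and its share fell from 36.8% to 21.9% and from 34.1% to 15.1%. Most of the added Cp signal was thus assigned to 1 transcript. Such shares are Salmon's estimates among transcripts that share most of their bases.

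**Figure D2:**
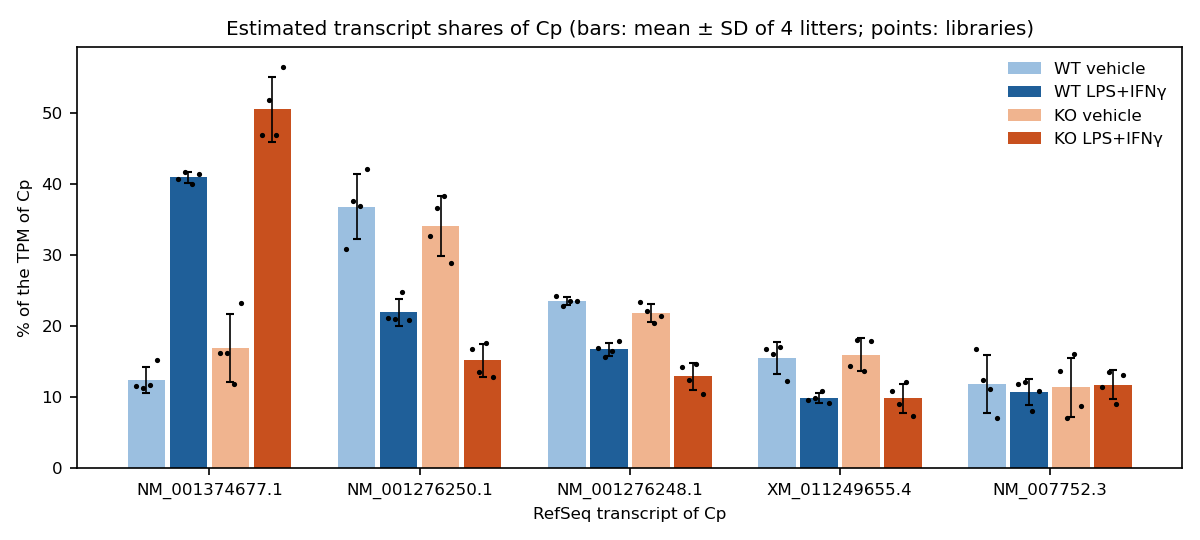
The share of Cp TPM (vertical axis, %) that Salmon assigned to each of 5 RefSeq transcripts, as bars for the mean and SD of 4 litters and points for single libraries in the 4 groups. NM_001374677.1 rises from 12.4% to 40.9% in WT and from 16.8% to 50.5% in KO, while NM_001276250.1 and NM_001276248.1 lose share.

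Aspg, an asparaginase, had the lowest fitted WT response of the 9, and its transcripts were nearly lost after stimulation. WT vehicle libraries held 19, 46, 69 and 88 reads in litters 1 to 4, and the stimulated ones held 0, 0, 2 and 0. KO libraries held 26, 0, 39 and 5 reads in vehicle and 5, 0, 0 and 0 after LPS+IFNγ. No WT vehicle library overlapped a stimulated WT library, whereas KO litter 2 held no read in either well. Vehicle was 109 times higher than LPS+IFNγ over the 4 WT litters, on 222 against 2 reads, with a 95% exact interval of 29.9 to 907 for counting error. The KO ratio was 13.6, on 70 against 5 reads, with an interval of 5.54 to 43.1. The fitted log2 changes were -6.31 ± 1.11 in WT (adjusted p = 0.00135, edgeR) and -3.55 ± 1.17 in KO (adjusted p = 0.0296, edgeR), and the size of both depends on the prior count. The KO call was lost without WT litter 3 (adjusted p = 0.0564, edgeR), KO litter 3 (0.151) or KO litter 4 (0.0586).

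Hspb1, the small heat shock protein HSP25, fell in WT. The WT log2 CPM in litters 1 to 4 was 1.34, 2.05, 1.67 and 2.06 in vehicle and 0.72, 0.48, 0.10 and 0.32 after LPS+IFNγ, so that the groups did not overlap. KO litters held 1.39, 0.95, 1.84 and 0.85 in vehicle and 0.40, 1.05, -0.31 and 0.47 after stimulation, which overlapped, and KO litter 2 went up by 0.10. The fitted change was -1.43 ± 0.36 in WT (adjusted p = 0.00846, edgeR) and -0.88 ± 0.36 in KO (adjusted p = 0.0667, edgeR). The KO value passed the threshold in DESeq2 (adjusted p = 0.0402), in limma on the deposited log2 CPM (0.0478) and in edgeR without KO litter 2 (-1.22, adjusted p = 0.0275). Libraries held 28 to 154 reads of Hspb1.

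S1pr3, a receptor for sphingosine 1-phosphate, and Serpina3n, a secreted inhibitor of serine proteases, did not pass the test in either genotype. S1pr3 log2 CPM in WT litters 1 to 4 was 6.91, 7.31, 7.63 and 7.48 in vehicle and 6.48, 7.41, 7.43 and 7.73 after LPS+IFNγ. In WT 2 litters went up and 2 went down, between -0.43 and 0.25, with a fitted change of -0.08 ± 0.26 (adjusted p = 0.825, edgeR). In KO the litters also split, with changes of -0.65, 1.25, -0.46 and 0.76 and a fitted change of 0.17 ± 0.27 (adjusted p = 0.622, edgeR). Both genes were well read, with at least 620 reads of S1pr3 and 189 reads of Serpina3n in every library. For Serpina3n the sums used in the fits held 82.25% to 98.94% of the counts behind the deposited log2 CPM. In KO litter 2 in vehicle they held 187 against 227.

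Serpina3n was lower after stimulation in all 4 WT litters, by a little: the log2 CPM changed by -0.15, -0.35, -0.13 and -0.36. The fitted change of -0.22 ± 0.23 did not pass the test (adjusted p = 0.474, edgeR). KO litters changed by -0.35, 1.40, -0.11 and 0.11, and the fitted change was 0.21 ± 0.25 (adjusted p = 0.518, edgeR). Without KO litter 2, the WT change of -0.22 passed the threshold (adjusted p = 0.0317, edgeR) in a fit where both genotypes share 1 estimate of the spread. The following 3 relatives were chosen after their values were seen. Serpina3f held 0 reads in all 8 vehicle libraries and 2950 to 4711 reads in each stimulated WT library, at least 5214-fold higher with a floor of 3 reads over the group, and at least 6255-fold in KO. Serpina3i (at least 303-fold in WT and 245-fold in KO) and Serpina3g (at least 18.99-fold and 21.7-fold) rose from 0 reads as well. Reads shared between Serpina3 copies are split by estimation, so that the values of each copy are uncertain.

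**Figure D3:**
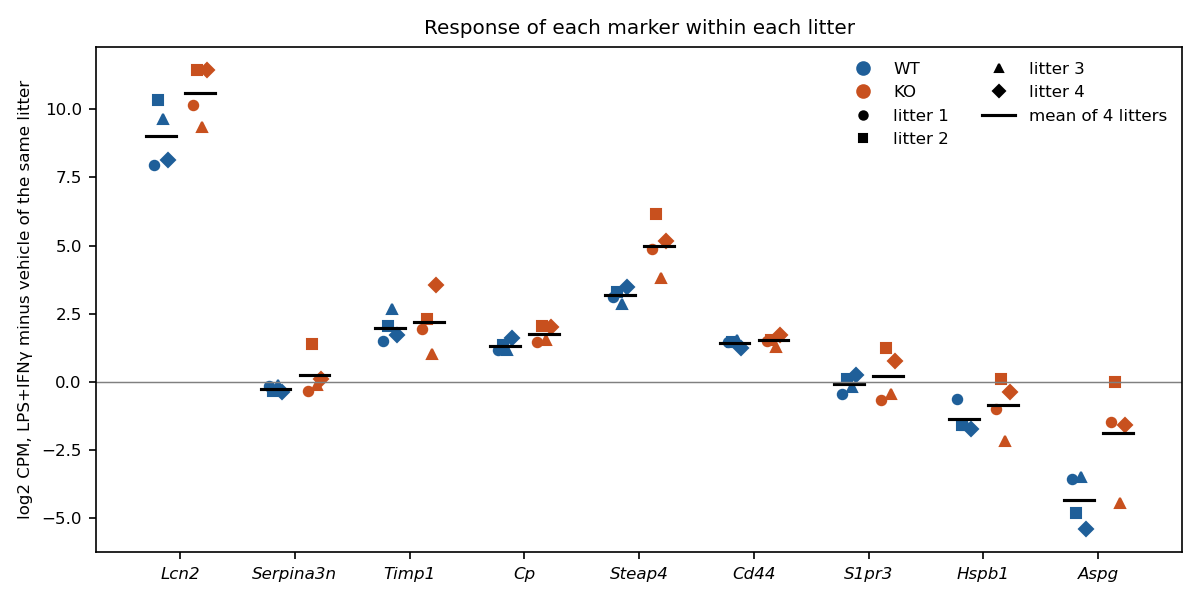
Change in deposited log2 CPM from vehicle to LPS+IFNγ within each litter (vertical axis), for the 9 markers, WT in blue and KO in orange, with black bars for the mean of 4 litters. The WT and KO litters of Steap4 do not overlap (2.86 to 3.47 and 3.81 to 6.15), and those of every other marker do. The share of all genes without overlap was not counted. The responses of Lcn2 and Aspg rest on wells with few or no reads.

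Knocking out Nlrx1 was then compared with WT within each treatment. Among the 9 markers, 1 was called different after LPS+IFNγ: Steap4 was higher in KO, by 1.28 ± 0.30 on the log2 scale (adjusted p = 0.0396, edgeR over 4 groups of 4 libraries). Over all genes 5.03% were called in that comparison. All KO libraries of Steap4 (5.51 to 7.08 log2 CPM) lay above all WT libraries (4.45 to 5.49), although KO litter 3 exceeded the highest WT library only narrowly. The share of all genes separated in this way was not counted. The call was lost without WT litter 2, 3 or 4 or KO litter 2 or 4 (adjusted p of 0.128, 0.139, 0.150, 0.0881 and 0.148, edgeR), each time with Steap4 still higher in KO, by 0.95 to 1.46. It was also lost when only the 8 stimulated libraries were fitted (adjusted p = 0.0766, edgeR), a fit that called 0 of 14965 genes, with 4170 at an unadjusted p below 0.05. An unadjusted p below 0.05 was reached by 5 of the 9 markers, against 28.4% of all genes. Cp (0.66 ± 0.19, adjusted p = 0.0537, edgeR) and Lcn2 (0.90 ± 0.33, adjusted p = 0.0957, edgeR) were higher in KO without passing the threshold, and their libraries overlapped between genotypes. Stimulated KO litters 2 and 4 were highest in Steap4 (7.08 and 6.56 log2 CPM), Cp (9.72 and 9.68) and Lcn2 (7.30 and 7.31). KO litters 1 and 3 were at 5.89 and 5.51, 8.88 and 8.85, and 6.02 and 6.51. The highest WT libraries were at 5.49, 8.91 and 6.50 in the same order. KO litters 2 and 4 were also the lowest in vehicle for S1pr3 and Serpina3n, and a shared cause was not tested. Cp was called in 5 of 19 alternatives. Among them were DESeq2 (adjusted p = 0.0108), edgeR with a block on the litter number (0.0241) and edgeR without KO litter 3 (0.0109). Lcn2 was called in 1, the block (0.0219), with adjusted p over its alternatives from 0.0219 to 0.403. Over all 16066 genes the main fit called 426 higher and 382 lower in KO, DESeq2 1229 and 1209 and the block 1012 and 1190. Without KO litter 3, 1504 and 1835 of 16298 were called. S1pr3 (-1.39 ± 0.53, adjusted p = 0.104, edgeR) and Serpina3n (-1.20 ± 0.47, adjusted p = 0.112, edgeR) had negative values. Timp1, Cd44 and Hspb1 were at 0.11 ± 0.33, 0.11 ± 0.12 and 0.04 ± 0.31. In the stimulated libraries 3 of the 10 astrocyte identity genes (Gja1, S100b and Aldoc, at -1.33, -2.001 and -0.62 log2) were called lower in KO, and their part in the marker values was not tested.

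In vehicle, edgeR called 0 of the 9 markers and 0% of all genes between genotypes. Nlrx1 itself was not called there (-1.70 ± 0.24, adjusted p = 0.0540, edgeR), so that the lack of a call does not show equal levels. DESeq2 called 0 of the 9 as well, beside 455 genes higher and 280 lower in KO of 16066. An unadjusted p below 0.05 was reached by 2 of the 9, S1pr3 and Serpina3n, against 19.6% of all genes. Steap4, the gene that was higher in stimulated KO wells, was at -0.56 ± 0.34 in vehicle (adjusted p = 0.375, edgeR). For Lcn2 (13 reads in WT against 3 in KO) a difference was not detectable at this depth.

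The KO values of S1pr3 and Serpina3n in vehicle differed between litters. S1pr3 log2 CPM in KO vehicle was 6.30, 4.06, 7.25 and 4.77 in litters 1 to 4, and Serpina3n was 4.53, 2.62, 4.88 and 3.74. In both genes KO litters 2 and 4 were the lowest 2 of all 8 vehicle libraries, and KO litter 3 lay within the WT range of both (6.91 to 7.63 and 4.60 to 6.45). The fitted KO difference in vehicle was -1.26 ± 0.53 for S1pr3 (adjusted p = 0.210, edgeR) and -1.52 ± 0.47 for Serpina3n (adjusted p = 0.132, edgeR). Without KO litter 3 both were called, at -2.002 (adjusted p = 0.0187, edgeR) and -1.85 (adjusted p = 0.0398, edgeR). Leaving out that litter also took the calls over all genes from 0 to 590 up and 716 down of 16298. KO litters 2 and 4 were also the lowest 2 of the 4 KO vehicle libraries in many of the summed lists, those of other cell types included. The 10 astrocyte identity genes summed to 4164, 3275, 4576 and 3628 TPM in KO vehicle litters 1 to 4, the 12 A2 markers to 738, 449, 862 and 428, and the 4 further pan-reactive genes (Gfap, Vim, Cxcl10 and Osmr) to 3650, 2661, 5049 and 3122. Ependymal markers summed to 122, 78.3, 157 and 115 TPM, neuronal markers to 21.3, 14.1, 22.7 and 19.02, and fibroblast and pericyte markers to 10.9, 6.38, 27.4 and 10.3. The 8 oligodendrocyte lineage genes ran the other way, at 2806, 3146, 2337 and 2918 TPM. The part of these values in the low levels was not tested.

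**Figure D4:**
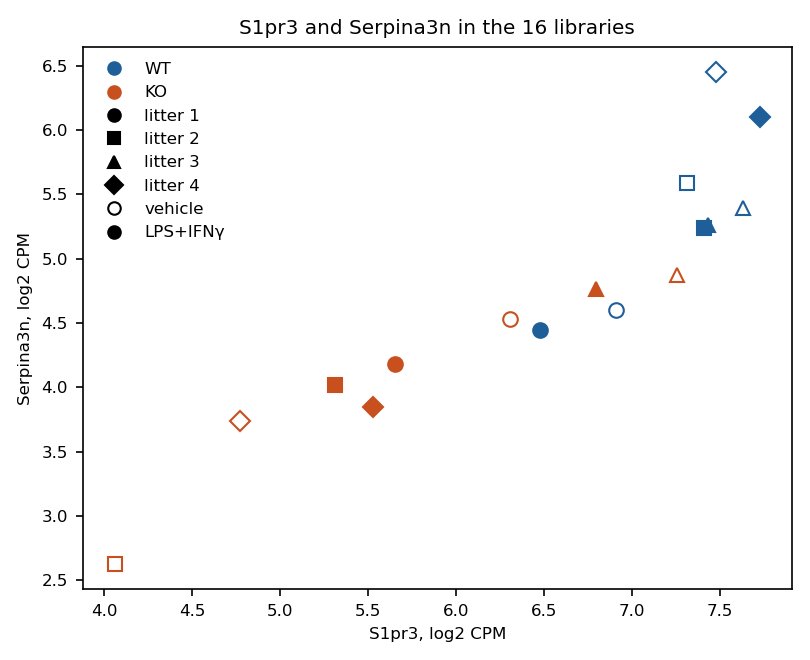
Serpina3n against S1pr3, both as deposited log2 CPM, in the 16 libraries, with WT in blue, KO in orange, 1 symbol per litter, open for vehicle and filled for LPS+IFNγ. The vehicle libraries of KO litters 2 and 4 lie lowest on both axes, and KO litter 3 lies beside WT litter 1.

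The response itself was compared between genotypes as an interaction. For none of the 9 markers was the difference of responses called by edgeR, where 0% of all genes were called, although 3 of the 9 (Steap4, Cp and Lcn2) had an unadjusted p below 0.05, against 15.4% of all genes. The litters used here are those of the responses above, and the vehicle wells enter both the responses and the vehicle comparison. Steap4 had the smallest p-value of the 9, with a response larger in KO by 1.79 ± 0.38 on the log2 scale (adjusted p = 0.218, edgeR). DESeq2 called it (1.82, adjusted p = 0.0200), as did edgeR without KO litter 3 (2.19, adjusted p = 0.0288). Over all genes DESeq2 called 111 up and 185 down there, and edgeR without KO litter 3 called 126 and 190, against 0 with all litters. Cp was at 0.42 ± 0.15 (adjusted p = 0.244, edgeR), and Lcn2 at 2.94 ± 1.25 (adjusted p = 0.303, edgeR), a value that rests on the few vehicle reads. Cd44 and Timp1 were at 0.08 ± 0.10 and 0.17 ± 0.47.

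**Figure D5:**
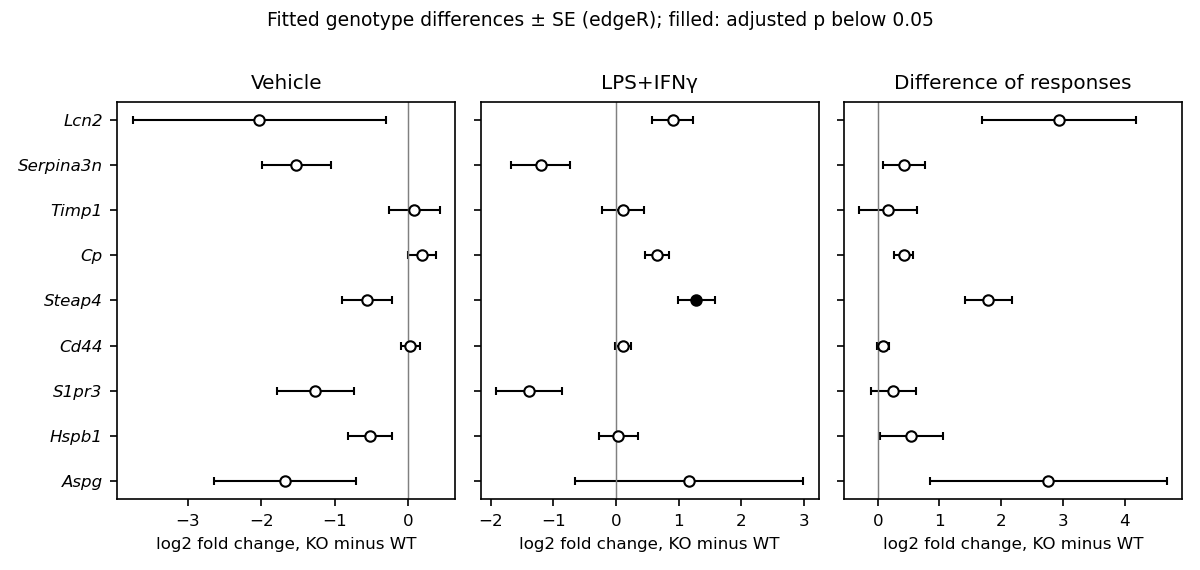
Fitted log2 differences between KO and WT with their SE (horizontal axis, a separate scale per panel) for the 9 markers in vehicle, after LPS+IFNγ, and as the difference of responses; filled points have an adjusted p below 0.05 in edgeR. Steap4 after LPS+IFNγ (1.28 ± 0.30) is the only filled point. Lcn2 in vehicle and in the difference of responses, and Aspg in all panels, have wide errors.

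Genes around the markers were counted from lists. Among the 4 further pan-reactive genes, Cxcl10, a chemokine induced by interferon, rose in both genotypes (10.71 and 9.37 log2 in WT and KO), Osmr, the oncostatin M receptor, rose in KO (1.62, adjusted p = 0.00111, edgeR) and was at 0.66 in WT (adjusted p = 0.0788, edgeR), and Gfap, the astrocyte intermediate filament, was not called in either (-0.44 and 0.16). The difference of responses of Osmr was not called (adjusted p = 0.298, edgeR). Of 11 A1 markers tested, 7 rose and 2 fell in WT and 7 rose in KO, with a median log2 response of 5.15 and 4.92, beside 23.7% of all genes up and 20.2% down in WT and 25.3% and 24.2% in KO. Of 11 A2 markers tested, 7 rose and 2 fell in WT and 8 rose and 1 fell in KO, with medians of 0.50 and 0.75. Thus the medians of the 9 markers (1.34 and 1.51) lay between those of the A1 and A2 lists in both genotypes.

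Among 19 tested cytokines, receptors and factors that feed STAT3, NF-κB and C/EBP, 13 rose and 2 fell in WT and 15 rose and 2 fell in KO, where 23.7% and 25.3% of all genes rose. Lif, a cytokine of the interleukin 6 family, rose by 2.76 log2 in WT and 3.17 in KO, and Myd88, an adaptor of Toll-like receptors, by 2.54 and 2.80. None of the 19 was called different between genotypes in either treatment, with 4 (vehicle) and 7 (LPS+IFNγ) at an unadjusted p below 0.05, beside 19.6% and 28.4% of all genes. Of 32 tested partners and relatives of the markers, 10 rose and 8 fell in WT and 13 rose and 10 fell in KO, beside 23.7% and 20.2% of all genes in WT and 25.3% and 24.2% in KO. The following relatives were chosen after their values were seen. Steap1 and Steap2 were called up in KO (1.22 and 0.27) and not in WT (0.22 and 0.07). Their difference of responses was not called (adjusted p = 0.369 and 0.529, edgeR). Steap3, the metalloreductase of the transferrin cycle, fell (-1.34 in WT and -1.17 in KO) where Steap4 rose, and Timp2 (-0.34 and -0.51) and Timp4 (-1.37 and -1.99) fell where Timp1 rose. Slc40a1, the iron exporter ferroportin, which works with ceruloplasmin, fell as well (-1.55 and -1.01).

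Across the 16 libraries the markers followed different genes. The measure of likeness was Pearson's r of the deposited log2 CPM over 12013 genes with a mean of at least 1, given as a description, since the libraries share litters and treatments. Lcn2 was closest to Rbm43 (r = 0.992), Apobec3 and Dtx3l, Steap4 to Nmt1 (0.991), Samd9l and Psmd4, Cd44 to Aldoa (0.996), Lypla2 and Lap3, and Cp to Ascc3 (0.988), Xbp1 and Sntb1. Once group means were taken out, r was 0.670, 0.659 and 0.593 for the 3 neighbours of Lcn2 and 0.780, 0.933 and 0.833 for those of Steap4. Timp1 was closest to Pithd1 (0.967), Adamtsl3 and Oaf, Hspb1 to Sypl (0.932), Trappc2 and Erbin, and Aspg to Slc35d1 (0.941), Man1a and Scd4. S1pr3 followed Bmerb1 (0.972), Capn1 and Clu, and Serpina3n followed Ugt1a6a (0.965), Gfap (0.964) and Rdh5, and these values hardly changed with group means taken out (0.975 for Bmerb1 and 0.939 for Gfap). Between the 2 markers themselves r was 0.924, and 0.844 after group means were removed, the highest within-group value of the 36 pairs of markers.

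By position in GENCODE M39 (GRCm39), Lcn2 lies at chr2:32274645-32278264 and Cd44 at chr2:102641486-102732010, both on the minus strand, and the others lie on the plus strand, with Cp at chr3:20011090-20063930, Steap4 at chr5:8010260-8032214, Hspb1 at chr5:135916760-135918417, Serpina3n at chr12:104372810-104380597, Aspg at chr12:112073076-112094007, S1pr3 at chr13:51561702-51576833 and Timp1 at chrX:20736316-20740976. All 9 are protein-coding. Libraries did not keep strand, and exons of 5 of the markers overlap a gene on the other strand, Hps3 for Cp and lncRNA genes for Steap4, S1pr3, Cd44 and Aspg, so that reads from the overlaps cannot be told apart.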

How the data were processed

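RNA of 16 primary mouse astrocyte cultures was sequenced from poly(A) libraries that did not keep strand. The deposited transcript tables hold estimated counts, TPM and effective lengths, which the authors made with Salmon 1.7.0. The authors also deposited gene tables of CPM (a signal scaled to library size) and of log2 CPM, made in R from those estimates, in which 0 reads stand at -4.13.

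Here 129698 transcripts were summed to 35297 genes through RefSeq accessions (106440 paired, 96.7 to 97.3% of reads), the sums were rounded, and 16066 genes passed edgeR's filterByExpr with a minimum count of 10. Responses were tested with edgeR 4.0.16 (quasi-likelihood test, TMM, offsets for transcript length, both genotypes in 1 fit) within each genotype and as an interaction, with the litter as a block, since each litter gave both wells. Residual correlations between wells of 1 litter were 0.073 to 0.355. Genotypes were tested within each treatment in a fit of all 4 groups without a block, because the labels tie litters of different genotypes by number only. The study says that the WT and KO pups of its sequenced cultures, given there as newborns, shared a day of birth. Whether equal litter numbers mark such a day is not given in the sources used here. P-values were adjusted over all genes by Benjamini-Hochberg, and calls are at an adjusted p below 0.05. The SE of a fitted change was derived from the test, as the absolute change divided by the square root of its F statistic. Levels between genes are compared as TPM, and SD is over litters. Pooled read ratios carry exact binomial 95% intervals. The steps were tested on simulated data. Alternatives were DESeq2 1.42.0, limma-voom and limma 3.58.1 on the log2 CPM, counts recovered from the CPM, other filters, scalings and thresholds, blocks and leaving out each litter. RefSeq promoter windows carry the build GRCm38.p6 and were placed in GRCm39 by exact match. The members, gene lists and tests were chosen with earlier results of these data known. Named genes were all 9 members, at most the 3 genes of another list with the largest absolute WT response, Nlrx1 and the 3 genes most alike each member, and others are marked as chosen after their values were seen or are the whole of a small count.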

Additional observations from a re-analysis of the deposited data

Results flagged for a closer look

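Of 54 groups of 4 values (9 markers, their levels in 4 groups and their responses in 2 genotypes), 4 had a highest value that stood apart from the other 3 by Dixon's criterion. Chance gives about 1 in 20 groups, a rate that does not hold for 3 of the 4, in which the other values were tied at 0 reads and any read would stand apart. For Lcn2 in KO vehicle, litter 3 stood at -2.84 log2 CPM, on 3 reads, with the other litters at 0 reads. For Aspg, WT litter 3 after LPS+IFNγ stood at -2.97 log2 CPM, on 2 reads, and KO litter 1 after LPS+IFNγ stood at -2.08, on 5 reads, again with the other litters at 0 reads. For Hspb1, the WT response of litter 1 was -0.62, against -1.57 to -1.73 in the other litters.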

How the results depend on the processing

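The 7 markers called in WT and the 6 called in KO stayed within 1.5 times those counts under all alternatives run. Between genotypes after LPS+IFNγ, 1 marker was called, against 0 at an adjusted p below 0.01, 0 with only the 8 libraries of the treatment, 2 with DESeq2, 2 with counts recovered from the CPM, 2 with the litter as a random effect and 4 (Steap4, Cp, Lcn2 and S1pr3) with the replicate block across genotypes. In stimulated wells that block put 1012 genes higher and 1190 lower in KO, and libraries of equal number had a median correlation of 0.037. Leaving out 1 litter gave 0 to 3 calls there, 0 to 2 in vehicle and 0 to 1 for the difference of responses. DESeq2 called that difference for 1 marker. Of all genes, leaving out WT litter 2 called 0 up and 1 down after LPS+IFNγ, and leaving out KO litter 3 called 1504 and 1835. These were the lowest and highest counts. Without KO litter 3, 590 and 716 were called in vehicle and 126 and 190 for the difference. The recovered counts called 673 and 491 of 16677 genes after LPS+IFNγ, and the random effect called 586 and 658 of 16066. Over all genes, DESeq2 called 455 genes higher and 280 lower in KO in vehicle, 111 and 185 for the difference and 1229 and 1209 after LPS+IFNγ. edgeR called 426 and 382 after LPS+IFNγ and 0 in the other comparisons between genotypes, with 3151 genes in vehicle and 2468 for the difference at an unadjusted p below 0.05, and limma-voom called 200 and 187 after LPS+IFNγ, 1 gene in vehicle and 0 for the difference.

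Values that changed sign were all of comparisons that were not called. Without the replicate block, that is unpaired, S1pr3 was -0.16 in the KO response and -0.13 in the difference, and the KO response of Hspb1 was called (-0.88, adjusted p = 0.0324, edgeR). With limma-voom, the S1pr3 KO response was -0.015, Timp1 in vehicle -0.13 and Hspb1 after LPS+IFNγ -0.057. With limma on the log2 CPM these last 2 were -0.11 and -0.0051, and with the litter as a random effect -0.13 and -0.061. Leaving out 1 litter moved S1pr3 from -0.19 to 0.043 in the WT response, from -0.15 to 0.48 in the KO response and from -0.073 to 0.56 in the difference. It moved the Serpina3n KO response from -0.19 to 0.41, Timp1 in vehicle from -0.34 to 0.39 and in the difference from -0.24 to 0.57, and Cd44 in vehicle from -0.055 to 0.13. Hspb1 after LPS+IFNγ ran from -0.23 to 0.23, and Aspg from -2.45 to 3.61 there and from -0.58 to 5.18 in the difference. The cause of these changes was not tested. Depth limits Lcn2 in vehicle and Aspg after LPS+IFNγ, where libraries held 0 to 10 and 0 to 5 reads.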

Other observations

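Genes of the A1 and A2 lists with the largest absolute WT responses rose in both genotypes. Among A1 markers, Iigp1, an interferon-induced GTPase, changed by 14.02 log2 in WT and 12.73 in KO, Gbp2, a guanylate-binding protein, by 8.40 and 9.10, and Psmb8, a subunit of the immunoproteasome, by 7.92 and 7.25. Among A2 markers, Ptx3, a secreted pentraxin, changed by 2.99 and 3.92, Ptgs2, the inducible cyclooxygenase, by 2.56 and 3.59, and Tgm1, a transglutaminase, by 1.92 and 2.37. All 12 are fitted values, whose size depends on the prior count where vehicle reads are few, and all passed the test in edgeR. The difference of responses between genotypes was called for 0 genes of either list in edgeR, with 6 A1 and 3 A2 markers at an unadjusted p below 0.05, beside 15.4% of all genes.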
